A study of Homo sapiens with 21 samples.

Results

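This section follows 10 genes of the amino acid and endoplasmic reticulum stress response, of 26485 genes in the deposited count table. They are 6 stress regulators (ATF4, DDIT3, DDIT4, TRIB3, CHAC1 and SESN2) and 4 subunits of amino acid transporters (SLC7A11, SLC7A5, SLC3A2 and SLC1A5). The genes were chosen by name, with the RNA comparison of these libraries already known, so their RNA values are given as a description. All 10 passed the filter on low counts that left 14018 genes for testing.

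ATF4 is a transcription factor of the integrated stress response. Stress kinases phosphorylate the translation factor eIF2, which lowers bulk protein synthesis but raises translation of the ATF4 mRNA, so ATF4 activity can rise without more ATF4 mRNA. ATF4 then binds composite CEBP-ATF sites and switches on genes for amino acid uptake, amino acid synthesis and stress signalling, often together with a CEBP partner. In cancer cells this programme supplies amino acids and cystine, the latter for glutathione synthesis.

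The libraries came from MDA-MB-436, a BRCA1-mutant human breast cancer line, after lentiviral transduction of a doxycycline-inducible short hairpin. One hairpin targeted RNF8, a ubiquitin ligase of DNA break signalling (shRNF8), and the other was a scrambled control (shScr, labelled WT). Both groups share the cell line, the BRCA1-mutant background and high-glucose medium with serum. The labels give neither the number of clones or hairpin sequences nor whether replicates were separate cultures, so p-values measure the spread between these libraries only. Polyadenylated RNA was profiled in 6 libraries, 3 per hairpin. R-loops, in which RNA pairs with one DNA strand, were pulled down from sheared chromatin with S9.6, an antibody to DNA-RNA hybrids. There were 2 S9.6 libraries of shScr and 4 of shRNF8, and an RNase-treated library stands beside every one of them. Peak names inside the lists of shRNF8 S9.6 replicates 3 and 4 repeat the stems of replicates 1 and 2, although the peaks differ.

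RNA libraries held 18121181 to 20006954 counts assigned to genes, and S9.6 libraries held 32358 to 50963 peaks. RNA levels are given as CPM, the count scaled to library size after TMM normalization. RNF8 itself was at 28.7 ± 0.585 CPM in shScr (SD, n = 3) and at 9.09 ± 1.05 CPM in shRNF8 (SD, n = 3), with every shRNF8 library far below every shScr library. The breast cancer line's VIM (893 to 1149 CPM), KRT8 and KRT18 were high, KRT5 was at 0, and ESR1 and PGR had at most 2 counts. Some other epithelial markers were near the floor, with at most 0.861 CPM for EPCAM, 0.206 for CDH1, 0.101 for KRT19 and 0.0506 for KRT14. Others were not, with ERBB2 at 48.4 to 62.7 CPM, FOXA1 at 3.3 to 5.3 CPM and GATA3 at 1.06 to 1.41 CPM. The mesenchymal markers CDH2 (71.2 to 88.9 CPM) and ZEB1 (30.9 to 38.9 CPM) were expressed. Of the 16 epithelial and mesenchymal state markers listed, 7 stayed under 1 CPM. Among markers of other cell types, 6 of 8 immune and 7 of 9 endothelial or fibroblast markers stayed under 1 CPM. CD3E, MS4A1, CDH5, COL1A2, DCN and LUM were at 0 in all 6 libraries, and PTPRC had at most 1 count. The 8 immune markers summed to 120 to 141 CPM in shScr and 147 to 162 CPM in shRNF8, of which CD68 made up 108 to 152 CPM. CD14 differed the other way, at 11.5 CPM in shScr and 7.62 CPM in shRNF8 on average. The 9 endothelial and fibroblast markers summed to 8.56 to 10.3 CPM in shScr and 8.39 to 10.9 CPM in shRNF8. Within that sum KDR was at 4.63 ± 1.44 CPM in shScr and 7.36 ± 0.572 CPM in shRNF8, and COL1A1 at 3.56 ± 1.26 and 1.78 ± 0.606 CPM (SD, n = 3). The groups did not overlap for either gene. Of all genes tested, 12.8% had every shRNF8 library below every shScr library, and the share above is not given. The part of these markers in the results was not tested. The RNA library farthest from its group was shScr replicate 1. Its chi-square distance from the other shScr libraries, divided by the degrees of freedom, was 32.2 and 31.2, while those other two lay 3.55 from each other. In shRNF8, replicate 3 lay 13.8 and 11.4 from replicates 1 and 2, which lay 2.998 from each other. RNA results below are therefore given with and without shScr replicate 1.

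The promoter sequences below come from RefSeq (GRCh38.p14) and run from 250 bases before to 50 bases after a transcript start. Windows were found for 9 of the 10 genes. The first 3 are shown because they hold the core of a composite CEBP-ATF site, TGATGNAA, in capitals and on either strand. The last 2 hold no such core and are shown because S9.6 peaks lay at the TRIB3 start and not at the SLC7A5 start. Positions are counted from the transcript start.
CHAC1, chr15:40953221-40953520, plus strand: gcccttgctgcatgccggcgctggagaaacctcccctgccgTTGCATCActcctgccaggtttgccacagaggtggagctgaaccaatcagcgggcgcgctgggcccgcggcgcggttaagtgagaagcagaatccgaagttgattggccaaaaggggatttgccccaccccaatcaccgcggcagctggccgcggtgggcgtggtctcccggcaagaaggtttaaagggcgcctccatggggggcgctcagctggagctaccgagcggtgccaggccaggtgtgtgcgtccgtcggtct
SLC3A2, internal start, chr11:62881449-62881748, plus strand: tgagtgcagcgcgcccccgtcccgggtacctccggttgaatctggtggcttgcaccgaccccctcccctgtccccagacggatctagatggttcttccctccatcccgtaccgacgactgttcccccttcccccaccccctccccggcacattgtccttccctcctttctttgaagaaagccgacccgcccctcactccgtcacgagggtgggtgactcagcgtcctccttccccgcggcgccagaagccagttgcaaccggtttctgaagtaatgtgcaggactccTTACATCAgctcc
SLC1A5, internal start, chr19:46784765-46785064, minus strand: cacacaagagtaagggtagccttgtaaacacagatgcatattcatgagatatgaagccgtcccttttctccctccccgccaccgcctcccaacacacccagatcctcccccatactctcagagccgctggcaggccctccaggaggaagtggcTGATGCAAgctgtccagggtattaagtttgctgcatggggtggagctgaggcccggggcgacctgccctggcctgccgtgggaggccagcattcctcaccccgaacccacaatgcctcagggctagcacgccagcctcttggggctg
TRIB3, chr20:381045-381344, plus strand: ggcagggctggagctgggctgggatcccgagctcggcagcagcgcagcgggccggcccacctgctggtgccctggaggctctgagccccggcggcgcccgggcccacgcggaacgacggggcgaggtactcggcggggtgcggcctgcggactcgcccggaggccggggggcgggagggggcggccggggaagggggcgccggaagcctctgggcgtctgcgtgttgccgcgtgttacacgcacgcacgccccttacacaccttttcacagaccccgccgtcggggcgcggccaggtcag
SLC7A5, chr16:87869458-87869757, minus strand: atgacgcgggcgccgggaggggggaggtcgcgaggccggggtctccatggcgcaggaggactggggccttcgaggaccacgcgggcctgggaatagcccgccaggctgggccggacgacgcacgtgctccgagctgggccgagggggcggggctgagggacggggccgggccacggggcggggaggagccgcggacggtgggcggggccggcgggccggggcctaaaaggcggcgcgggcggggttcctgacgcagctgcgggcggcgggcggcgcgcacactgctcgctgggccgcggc

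The core was found in 3 of the 17 windows of these 9 genes, 1 each in CHAC1, SLC3A2 and SLC1A5, and in 3.62% of all 35116 windows in the table. In CHAC1 it read TTGCATCA on the plus strand, the reverse complement of TGATGCAA, and began at position -209. In SLC3A2 it read TTACATCA from position 37 of an internal start, and in SLC1A5 it read TGATGCAA from position -97 of an internal start. These are matches of letters and no measurement of binding. Neither ATF4, DDIT3, DDIT4, TRIB3, SESN2 nor SLC7A5 had a match within these windows. A TATA box core (TATAAA, in 11.5% of all windows) began at position -27 of ATF4 and was in no other member's windows. The endoplasmic reticulum stress element, CCAAT and CCACG spaced by 9 bases on either strand, was in none of the members' windows and in 0.0769% of all windows. GC content ran from 57.3% at ATF4 to 80.3% at SLC7A5, which lay at percentile 97.9 of all windows, and TRIB3 reached 77.0%. The median of all windows was 58.7%.

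On a scale per exon length and library size (TPM), ATF4 was the most abundant of the 10 mRNAs, with 361 ± 14.6 TPM in shScr (SD, n = 3). SLC7A5 followed with 249 ± 16.0 TPM, SLC3A2 with 170 ± 21.7, SLC1A5 with 141 ± 1.20 and TRIB3 with 110 ± 29.4 TPM. The shScr libraries of each of these genes were all above those of the next. Below them came DDIT4 (54.4 ± 21.5 TPM), DDIT3 (39.9 ± 7.60), SESN2 (29.3 ± 5.46), CHAC1 (24.2 ± 5.55) and SLC7A11 (20.8 ± 8.83 TPM). DDIT4 stayed below TRIB3 in all shScr libraries, while each neighbouring pair from DDIT4 downwards overlapped. In shRNF8 the order was the same apart from DDIT4, which at 18.8 ± 3.55 TPM came after DDIT3 (37.5 ± 2.76) and SESN2 (21.4 ± 2.44 TPM).

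All 10 genes had a negative log2 fold change in shRNF8, with a median of -0.43 against -0.005 over all genes tested. The size differed widely among them, from -0.04 for ATF4 to -1.53 for DDIT4. In the fit of all 6 libraries (edgeR quasi-likelihood, Benjamini-Hochberg adjusted p under 0.05) only DDIT4 was called lower, 1 of 10 genes, beside 1.57% of all genes called lower and 0.97% called higher. In 8 of 10 genes every shRNF8 library lay below every shScr library, beside 12.8% of all genes. DDIT3 and SLC7A11 were the exceptions, and ATF4 was apart by less than the rounding of its CPM. On the TPM scale, without TMM, ATF4 and SESN2 overlapped too, which left 6 of 10, beside 10.9% of all genes. In bulk RNA, fewer expressing cells and less mRNA per cell cannot be told apart. Without shScr replicate 1, 7 of 10 were called lower (all but ATF4, DDIT3 and SLC3A2), beside 14.3% of all genes called lower and 12.8% called higher. The biological coefficient of variation was 12.4% with all libraries and 7.46% without shScr replicate 1.

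**Figure D1:**
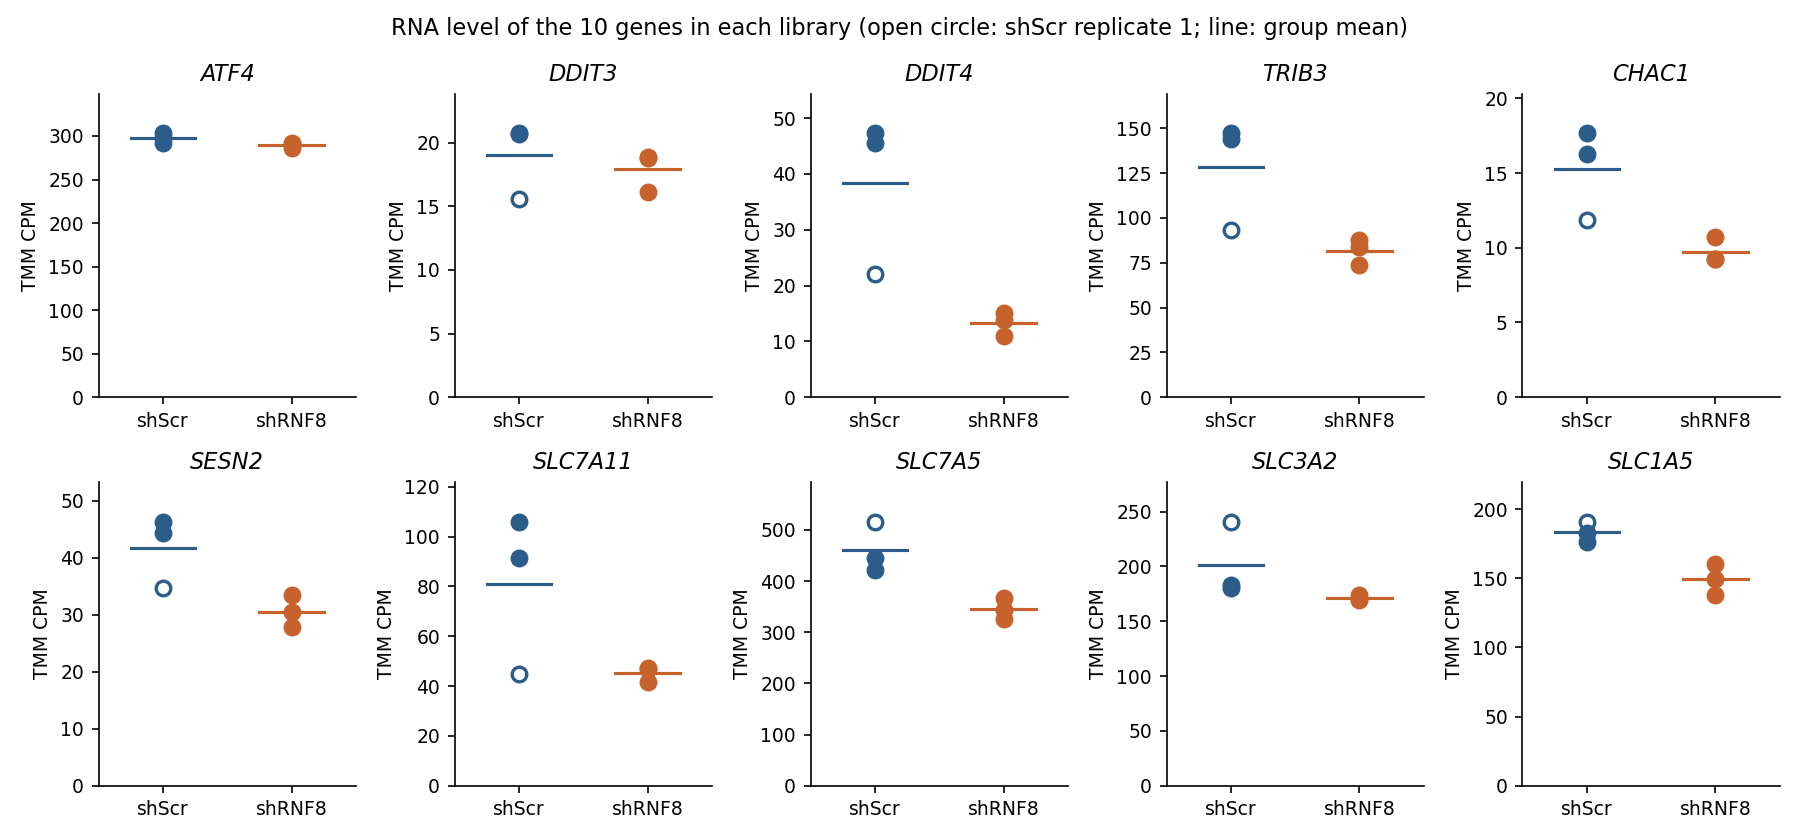
RNA level of each of the 10 genes as CPM scaled by TMM (y axis, from 0) in the 3 shScr (blue) and 3 shRNF8 (orange) libraries, with the group mean as a line. The open circle, shScr replicate 1, lies low among the shScr libraries for DDIT4 (22.1 CPM) and SLC7A11 (45.0 CPM) and high for SLC7A5 (516 CPM) and SLC3A2 (241 CPM).

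The mRNA of ATF4 itself hardly differed between the groups. It was at 297, 292 and 303 CPM in shScr replicates 1 to 3 and at 292, 287 and 291 CPM in shRNF8 replicates 1 to 3. The log2 fold change was -0.04 ± 0.08 (SE), and -0.04 ± 0.07 without shScr replicate 1. DDIT3, which encodes the CHOP partner of ATF4, was at 15.6, 20.7 and 20.8 CPM in shScr and at 16.2, 18.9 and 18.8 CPM in shRNF8. Its groups overlapped, and its log2 fold change was -0.08 ± 0.14, or -0.20 ± 0.12 without shScr replicate 1. DDIT3 overlaps MARS on the opposite strand, and the counts were made without a strand option, so reads from the overlap cannot be told apart.

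DDIT4 and SESN2 both encode stress-induced inhibitors of mTORC1, the kinase complex that couples growth to amino acids. DDIT4 was at 22.1, 47.3 and 45.6 CPM in shScr and at 15.1, 13.9 and 10.9 CPM in shRNF8. Its highest shRNF8 library lay below the lowest shScr library, which was shScr replicate 1. The log2 fold change was -1.53 ± 0.27 (edgeR adjusted p = 0.0250), and -1.80 ± 0.12 without shScr replicate 1 (edgeR adjusted p = 1.58e-08). The call with all libraries was lost without any 1 of the 5 other libraries (edgeR adjusted p from 0.0837 to 0.139). SESN2, a leucine-binding stress protein, was at 34.6, 46.3 and 44.3 CPM in shScr and at 30.5, 33.4 and 27.8 CPM in shRNF8. It differed by -0.45 ± 0.13 on the log2 scale (edgeR adjusted p = 0.0853), and by -0.57 ± 0.10 without shScr replicate 1 (edgeR adjusted p = 0.000569).

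TRIB3, a pseudokinase that feeds back on ATF4 and DDIT3, was at 93.4, 144 and 147 CPM in shScr and at 83.7, 87.5 and 73.6 CPM in shRNF8. shScr replicate 1 lay nearer to the shRNF8 libraries than to the other shScr libraries. The log2 fold change was -0.65 ± 0.16 (edgeR adjusted p = 0.0608), and -0.83 ± 0.09 without shScr replicate 1 (edgeR adjusted p = 3.21e-06). CHAC1, which degrades glutathione, was at 11.8, 16.3 and 17.7 CPM in shScr and at 10.7, 9.28 and 9.22 CPM in shRNF8. Its groups were apart by about 1 CPM when shScr replicate 1 was kept. The log2 fold change was -0.65 ± 0.17 (edgeR adjusted p = 0.0652), and -0.80 ± 0.13 without shScr replicate 1 (edgeR adjusted p = 0.000266).

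The 4 transporter subunits did not share one profile over the libraries. SLC7A11, the cystine-glutamate exchanger xCT, was at 45.0, 106 and 91.4 CPM in shScr and at 46.7, 41.5 and 47.4 CPM in shRNF8. In shScr replicate 1 it was as low as in shRNF8. It differed by -0.84 ± 0.28 on the log2 scale (edgeR adjusted p = 0.158), and -1.13 ± 0.09 without that library (edgeR adjusted p = 2.40e-07), the second largest change of the 10. SLC7A11 overlaps SLC7A11-AS1 on the opposite strand.

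SLC7A5 encodes LAT1, the exchanger that brings in leucine and other large neutral amino acids. It was at 516, 422 and 446 CPM in shScr and at 368, 344 and 327 CPM in shRNF8, with shScr replicate 1 the highest library. The log2 fold change was -0.41 ± 0.10 (edgeR adjusted p = 0.0548), and -0.32 ± 0.08 without shScr replicate 1 (edgeR adjusted p = 0.00561). SLC7A5 shares sequence with the pseudogenes SLC7A5P1 and SLC7A5P2, at a mean of 2.54 and 7.01 CPM, and how the reads were divided among them was not tested. SLC3A2 encodes 4F2hc, the heavy chain that carries both SLC7A5 and SLC7A11 to the membrane. It was at 241, 183 and 180 CPM in shScr and at 174, 169 and 170 CPM in shRNF8. Its log2 fold change was -0.24 ± 0.11, and -0.09 ± 0.08 without shScr replicate 1, called in neither fit. SLC1A5, the glutamine transporter ASCT2, was at 191, 176 and 183 CPM in shScr and at 160, 150 and 138 CPM in shRNF8. The groups were apart, with a log2 fold change of -0.30 ± 0.09 (edgeR adjusted p = 0.101), and of -0.26 ± 0.08 without shScr replicate 1 (edgeR adjusted p = 0.0243).

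**Figure D2:**
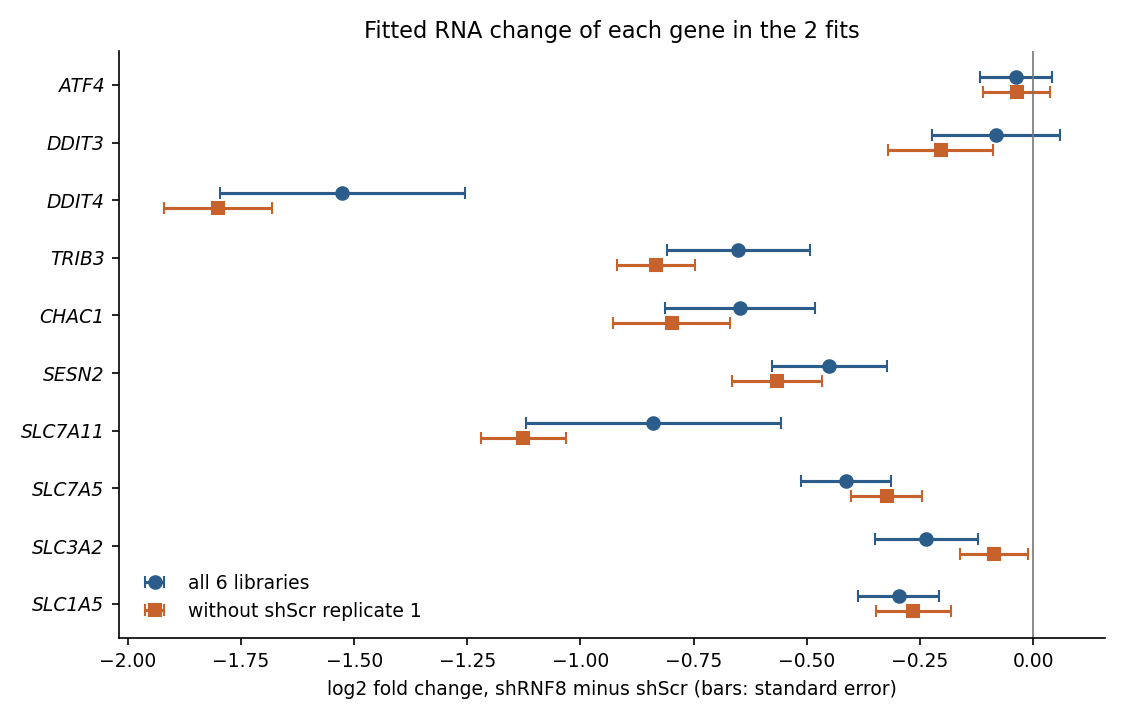
Fitted log2 fold change of each gene, shRNF8 minus shScr (x axis, with standard errors), from all 6 libraries (blue circles) and without shScr replicate 1 (orange squares). Leaving out that library moves SLC7A11 from -0.84 to -1.13 and SLC3A2 from -0.24 to -0.09, and leaves ATF4 at -0.04.

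shScr replicate 1 was low for most regulators and high for most transporter subunits. Relative to the mean of shScr replicates 2 and 3, its log2 CPM was -1.13 for SLC7A11, -1.07 for DDIT4, -0.64 for TRIB3, -0.52 for CHAC1, -0.41 for DDIT3 and -0.39 for SESN2. It was 0.00 for ATF4, and 0.41 for SLC3A2, 0.25 for SLC7A5 and 0.09 for SLC1A5. In 6 of 10 genes shScr replicate 1 lay below both other shScr libraries, beside 42.2% of all genes tested. The mean z-score of the 6 regulators was -0.20 in shScr replicate 1, 0.92 and 1.26 in the other shScr libraries, and -0.77 to -0.58 in the shRNF8 group. That of the 4 transporter subunits was 1.00 in shScr replicate 1, 0.56 and 0.59 in the other shScr libraries, and -0.93 to -0.43 in shRNF8. The labels say nothing that sets this library apart, and what its difference has to do with the lower values in shRNF8 was not tested.

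**Figure D3:**
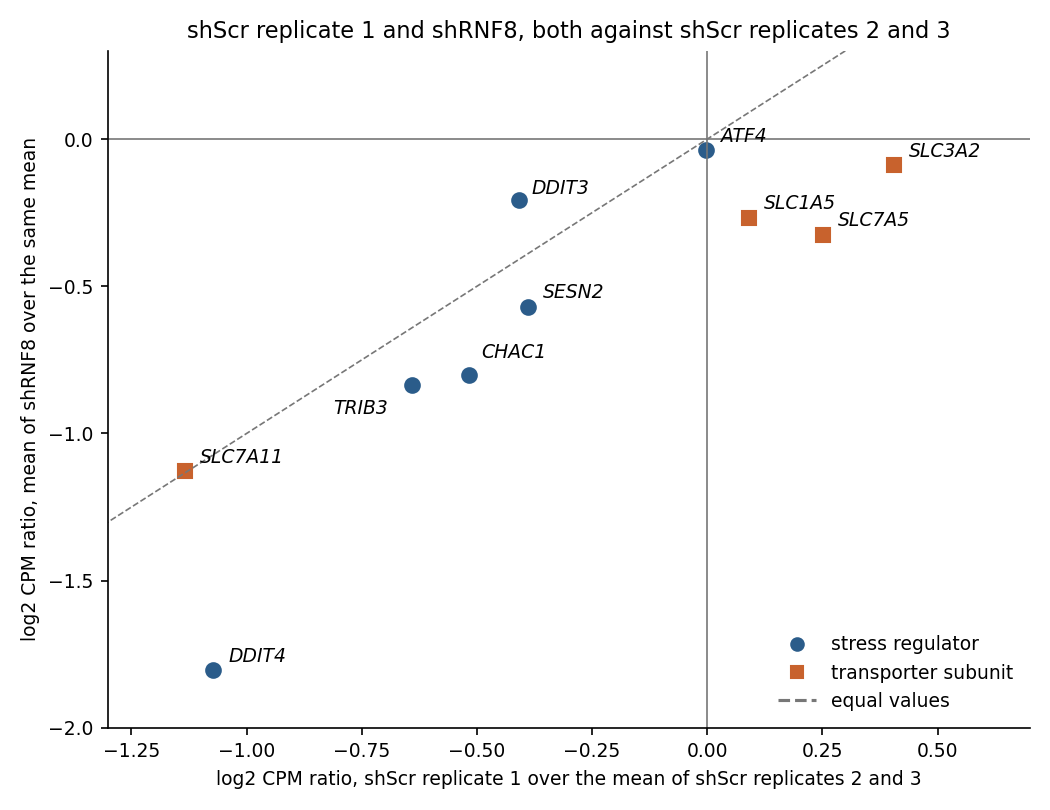
log2 CPM ratio of shScr replicate 1 (x axis) and of the shRNF8 mean (y axis), both over the mean of shScr replicates 2 and 3, for stress regulators (circles) and transporter subunits (squares). SLC7A11 lies on the line of equal values (-1.13 on both axes), DDIT4 lies below it (-1.07 and -1.80), and SLC7A5, SLC3A2 and SLC1A5 lie to the right of 0.

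Other genes of the pathway were counted by list, and differences between lists were not tested. Of 13 listed enzymes of amino acid synthesis and linked folate metabolism that ATF4 drives, 3 fell and none rose in the fit of all 6 libraries. All 13 had a negative log2 fold change, beside 7124 of all 14018 genes tested, and the median was -0.40. ASNS, the asparagine synthetase, went from 81.1 ± 17.5 to 49.7 ± 4.60 CPM (edgeR adjusted p = 0.0357). The serine synthesis enzymes PSAT1 (log2 fold change -0.64 ± 0.11) and PHGDH (-0.43 ± 0.08) were the other two. Without shScr replicate 1, 8 of the 13 fell and 11 had a negative log2 fold change. MTHFD2 and ALDH18A1 had small positive values in that fit (0.03 and 0.01), and small negative ones with all libraries (-0.04 and -0.005). Over all genes, 1.57% fell with all libraries and 14.3% without shScr replicate 1. Of 18 other plasma membrane amino acid transporters tested, 3 fell and none rose, with a median of -0.27. SLC43A2, a facilitated transporter of large neutral amino acids, went from 27.3 ± 5.07 to 13.7 ± 0.674 CPM, 1.99-fold lower (edgeR adjusted p = 0.00710). SLC6A9, a glycine transporter, was 1.88-fold lower (edgeR adjusted p = 0.0438), and SLC7A1, which imports arginine and lysine, was 1.31-fold lower (edgeR adjusted p = 0.0486). Without shScr replicate 1, 10 of 19 fell and none rose.

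Of 10 bZIP and partner factors, JDP2, a repressor of AP-1 and ATF sites, fell 1.89-fold (edgeR adjusted p = 0.0232), and the median log2 fold change was -0.26. CEBPB, a partner of ATF4, had a log2 fold change of -0.39 ± 0.09 and ATF6, the sensor of another stress branch, one of -0.52 ± 0.12, neither called with all libraries (edgeR adjusted p = 0.0580 and 0.0525). Without shScr replicate 1, 7 of the 10 fell and 1 rose, beside 14.3% and 12.8% of all genes. The one that rose was ATF5 (log2 fold change 1.01), named here after its value was seen. It was at 32.2 CPM in shScr replicate 1, 12.3 and 12.8 CPM in the other shScr libraries and 24.6 to 26.0 CPM in shRNF8.

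In the lists upstream of ATF4 and in the neighbouring stress branches no gene was called by edgeR in the fit of all 6 libraries. Over all 14018 genes tested, 2813 had an unadjusted p under 0.05 in that fit, and DESeq2 called 852. Of 16 eIF2 kinases and eIF2 or eIF2B factors, 0 had an unadjusted p under 0.05, DESeq2 called 0, and the median log2 fold change was 0.07. EIF2AK3, the PERK kinase, had a log2 fold change of -0.21 ± 0.13 and EIF2AK4, the GCN2 kinase, one of 0.19 ± 0.09. Of 15 endoplasmic reticulum chaperones, 0 had an unadjusted p under 0.05, DESeq2 called 0, and the median was 0.01. Of 11 NRF2 targets, 3 had an unadjusted p under 0.05 and DESeq2 called 1 (NQO1), with a median of 0.01. NQO1, a quinone reductase, had a log2 fold change of 0.34 ± 0.09 and GCLC, the catalytic subunit of glutathione synthesis, one of 0.39 ± 0.13. HMOX1, the heme oxygenase, had one of -0.22 ± 0.10, and 5 of the 11 values were negative. Of 11 p53 targets and sestrins, 2 had an unadjusted p under 0.05, and of 21 mTORC1 regulators, 3 did. DESeq2 called 0 in each, and the medians were -0.03 and -0.05. Without shScr replicate 1, edgeR called 12.8% of all genes higher and 14.3% lower. In that fit the eIF2 list had 5 genes higher and 1 lower, and the chaperones 1 and 1. The NRF2 targets had 3 and 1, the p53 list 1 and 4, and the mTORC1 regulators 3 and 4. In the eIF2 list these were PPP1R15A, EIF2S1, EIF2B1, EIF2B2 and EIF2B3 higher and EIF2AK3 lower, named after their values were seen. PPP1R15A encodes GADD34, which reverses eIF2 phosphorylation. GDF15, a stress cytokine in the p53 list, was low in shScr replicate 1. Its level there was 1.19 CPM, while the other shScr libraries had 8.56 and 7.95 CPM and shRNF8 had 1.65 to 1.95 CPM.

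Among 10926 other genes with a mean of at least 5 CPM, the pattern most like the mean z-score of the 10 genes over the 6 libraries was that of ZRANB1 (Pearson r = 0.998), followed by EEF2K (0.996), EEF1A2 (0.996), VEGFA (0.995) and TSPAN4 (0.994). These are descriptions over 6 libraries in 2 groups. VEGFA, the vascular growth factor, was at 31.2, 41.5 and 46.4 CPM in shScr and 23.7, 22.7 and 20.6 CPM in shRNF8. EEF1A2, a translation elongation factor, was at 369, 469 and 499 CPM in shScr and 256, 262 and 246 CPM in shRNF8. Within the 10 genes, DDIT4 (r = 0.979) and CHAC1 (0.971) followed their common pattern most closely, and DDIT3 (0.415) and SLC3A2 (0.390) least.

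S9.6 peaks are given for each library separately, and each peak's fold enrichment is the authors' value. Whether its background was the same library or an input is not given. Peaks were read against the 13539 RNA-tested genes that have a single locus on chromosomes 1 to 22 or X. A peak overlapped the gene in all 6 S9.6 libraries for 7 of the 10 genes, beside 41.1% of all genes. CHAC1, SESN2 and SLC7A11 were the other 3. A peak summit lay within 1000 bp of the annotated start in all 6 libraries for 0 of 10, beside 10.0% of all genes. In single libraries it did so for 7 and 7 of the 10 in shScr and for 3, 5, 6 and 3 in shRNF8 replicates 1 to 4. The share of all genes in single libraries was 31.6% to 41.0%. A peak with its summit at any distance overlapped the same 1000 bp on either side of the start in all 6 libraries for 5 of 10 (ATF4, DDIT3, DDIT4, TRIB3 and SLC1A5), beside 24.0% of all genes. This wider criterion was chosen after the data were seen, and the fold of such a peak is not always that of the start. The summit lay 1146 bp from the start in ATF4 (shRNF8 replicate 1), 1316 bp in DDIT4 and 1212 bp in SLC1A5 (both shRNF8 replicate 4), and 1810 and 1901 bp in TRIB3 (shRNF8 replicates 3 and 4). In DDIT3 (shRNF8 replicate 1) it lay 4040 bp away, past the gene's far end. In the RNase-treated libraries 0 of 10 genes had a peak in the gene or within 1000 bp of it, beside 3.07% of all genes with one in any of the 6 libraries, which held 254 to 1912 peaks each.

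**Figure D4:**
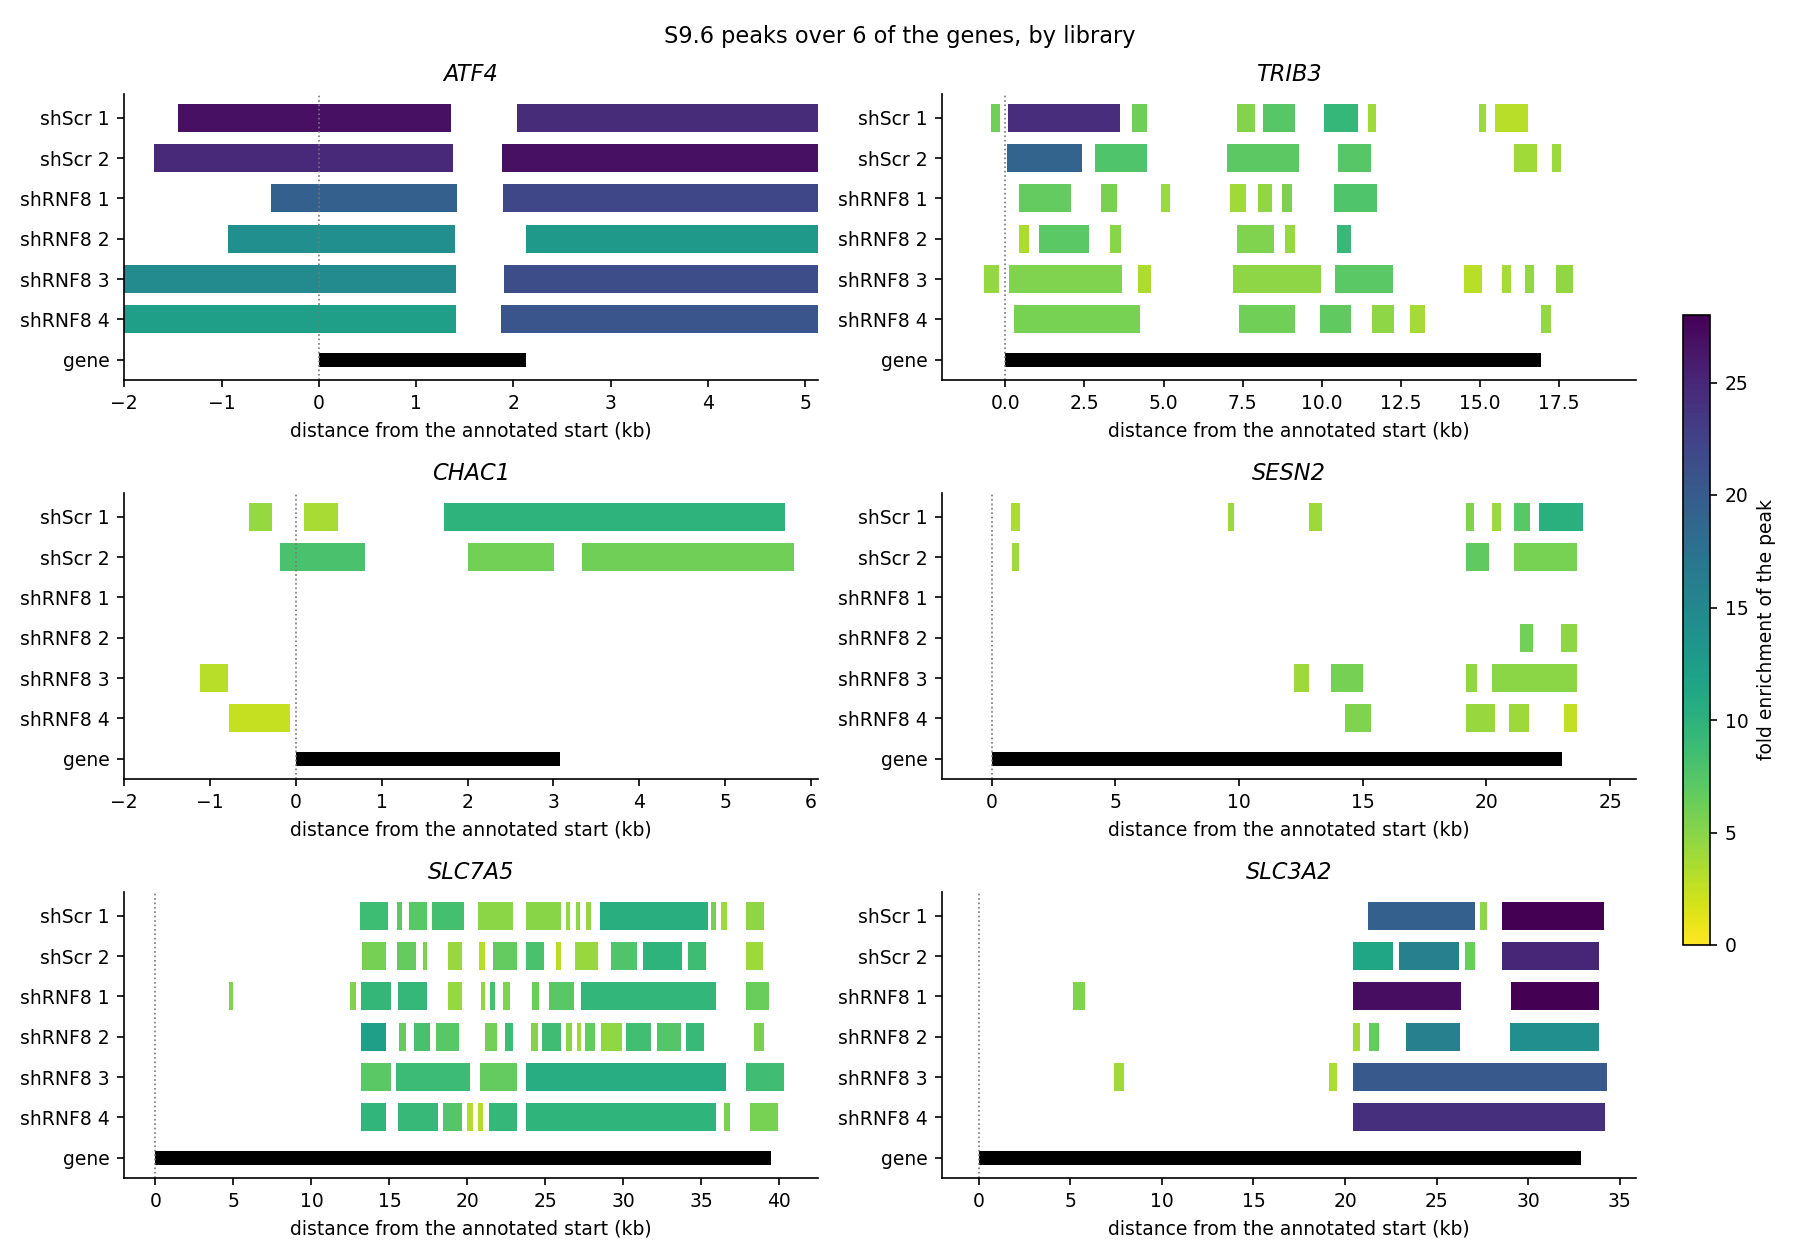
S9.6 peaks that overlap 6 of the genes or the 1000 bp on either side, as bars from peak start to end by distance from the annotated gene start in kb (x axis), one row per library, shaded by fold enrichment. TRIB3 has its strongest start peaks in the 2 shScr libraries (24.4 and 19.1), CHAC1 has gene peaks in shScr only, and SLC7A5 peaks lie well inside the gene.

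At TRIB3 (chr20:380629-397559, plus strand), the start peak was much stronger in shScr. Its highest fold enrichment was 24.4 and 19.1 in the 2 shScr libraries and 6.74, 3.46, 5.39 and 5.76 in shRNF8 replicates 1 to 4. Every shRNF8 library lay far below both shScr libraries. In shRNF8 replicate 2 a stronger peak, of fold 7.14, began 1072 bp from the start and so just missed the window. The means were 21.8 ± 3.76 (SD, n = 2) and 5.34 ± 1.37 (SD, n = 4), a log2 difference of -2.06. In the two-sided exact permutation test p was 0.0667, the smallest that 15 splits of 2 against 4 libraries allow, and the adjusted p over 3250 genes was 0.472. TRIB3 ranked 2 from the lowest log2 difference among those 3250 genes, whose median was 0.09. With each fold divided by its library's median the difference was -2.07. The shScr summits lay 674 and 637 bp into the annotated gene, next to the RefSeq starts at 666, 677 and 714 bp. Both summits lay inside the GC-rich window printed above. Peaks further along TRIB3, with summits 10578 to 10901 bp from the start, had folds of 9.31 and 7.40 in shScr and 7.70, 9.20, 7.20 and 6.78 in shRNF8, and these overlapped. The share of TRIB3 under peaks overlapped too, with 48.6% and 47.9% in shScr and 24.6% to 57.4% in shRNF8.

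At ATF4 (chr22:39520559-39522686, plus strand) a peak covered the start in all 6 libraries. Its fold was 26.8 and 24.9 in shScr and 19.5, 14.1, 14.8 and 12.3 in shRNF8, so the groups were apart. The log2 difference was -0.79 (exact permutation p = 0.0667, adjusted p = 0.472). The right edge of this peak lay between 1359 and 1420 bp past the start in every library. A further peak began near the gene's end, 1871 to 2127 bp from the start, and ran 5439 bp or more from the start, beyond the annotated end. Its fold was 24.6 and 26.9 in shScr and 22.04, 13, 21.5 and 20.8 in shRNF8. These groups were apart as well, but every summit of this peak lay outside the gene of 2128 bp. The shRNF8 replicate 1 value came from a summit 12091 bp from the start. These values therefore do not measure the gene's end, and no share of all genes is given for them. The summit of this peak lay at the same base, 4220 bp from the start, in 5 of 6 libraries, and in 4 libraries the peak reached the next annotated gene, RPS19BP1, which lies 6407 bp past the end of ATF4. ATF4 mRNA was the least changed of the 10 while its start peak was lower in all 4 shRNF8 libraries.

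DDIT3 (chr12:57516588-57520517, minus strand) was under peaks over 74.7% to 100% of its length. The peak over the start had folds of 17.3 and 14.6 in shScr and 9.24, 13.4 and 13.6 in shRNF8 replicates 2 to 4. In shRNF8 replicate 1 the peak over the start had a fold of 11.4, at the summit past the gene's far end, so this value does not measure the start. With it included, the groups were apart by about 1 unit of fold, with a log2 difference of -0.43 (exact permutation p = 0.133, adjusted p = 0.536). By the highest fold of any peak overlapping the 1000 bp around the start, TRIB3, ATF4 and DDIT3 were lower in every shRNF8 library. They made 3 of 5 genes, beside 11.8% of the 3250 genes. For DDIT3 this includes the value that does not measure the start. Some TRIB3 and ATF4 values also came from summits more than 1000 bp away. At DDIT4 (chr10:72273919-72276039, plus strand) the start folds overlapped, with 4.96 and 9.42 in shScr and 5.92, 3.75, 6.75 and 6.19 in shRNF8 (log2 difference -0.31, exact permutation p = 0.533). The gene with the largest RNA change thus had overlapping groups at its start in S9.6. Peaks covered 100% and 80.2% of DDIT4 in shScr and 34.0%, 0.519%, 83.3% and 68.7% in shRNF8. At SLC1A5 (chr19:46774883-46788585, minus strand) they overlapped as well, with 5.90 and 3.75 in shScr and 5.58, 4.87, 5.23 and 3.65 in shRNF8.

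**Figure D5:**
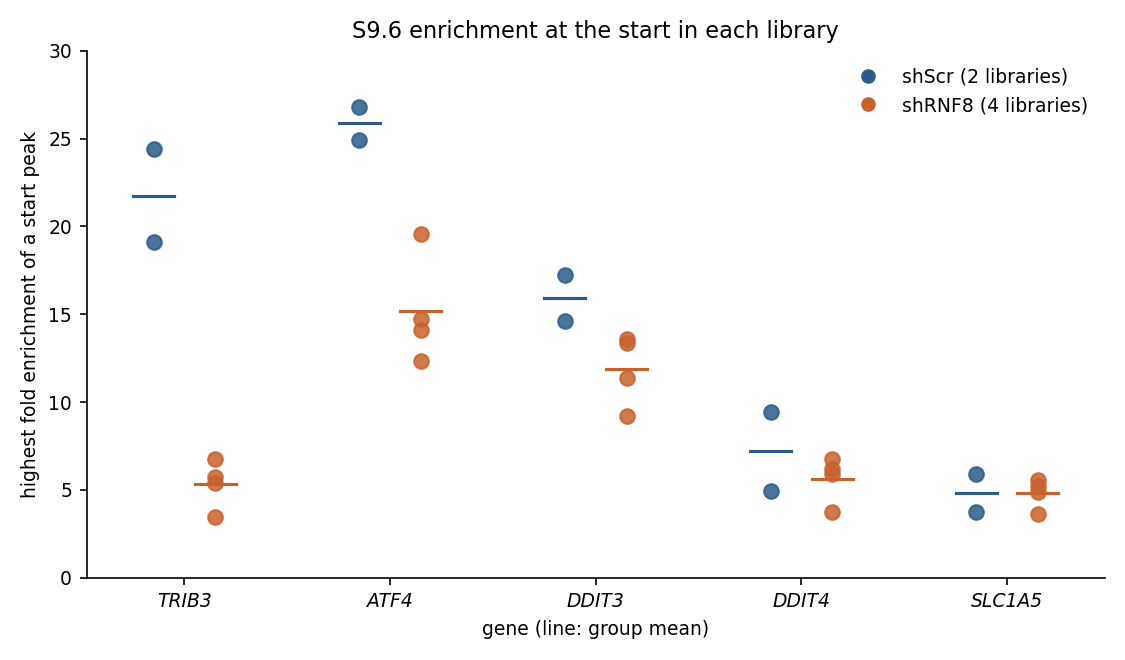
Highest fold enrichment of an S9.6 peak overlapping the 1000 bp on either side of the start (y axis, from 0) in 2 shScr (blue) and 4 shRNF8 (orange) libraries, for the 5 genes with such a peak in all 6, with group means as lines. The groups are apart for TRIB3 (19.1 or more against 6.74 or less), ATF4 and DDIT3, and overlap for DDIT4 and SLC1A5.

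CHAC1 (chr15:40953438-40956519, plus strand) had peaks over the gene in both shScr libraries and in none of the 4 shRNF8 libraries, a pattern shared by 1.34% of all genes. The peaks covered 56.7% and 58.9% of the gene in shScr, with highest folds of 9.86 and 7.99. In shScr replicate 1 that peak ran past the gene's end and its summit, 3534 bp from the start, lay outside the gene of 3082 bp. In shScr replicate 2 the summit was 568 bp into the gene. In shRNF8 replicates 3 and 4 only weak peaks remained, upstream of the start, with folds of 3.04 and 2.498. Those 2 libraries held 50963 and 48546 peaks, against 49277 and 38659 in shScr, and shRNF8 replicates 1 and 2 held fewer, 32358 and 34103. SESN2 (chr1:28259452-28282491, plus strand) had a weak peak near its start in both shScr libraries, with summits 956 and 927 bp from the start and folds of 3.44 and 3.94, and in no shRNF8 library. This pattern was shared by 2.03% of all genes. Peaks over the end of SESN2, with summits 21327 bp or more from the start, were present in both shScr libraries and in shRNF8 replicates 2, 3 and 4.

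SLC7A5 and SLC3A2, unlike SLC1A5, had no peak near the annotated start. SLC7A5 (chr16:87830023-87869494, minus strand) was covered over 37.9% to 59.7% of its length in all 6 libraries, at percentile 94.5 of genes of like length (up to 2 times longer or shorter). In 5 of 6 libraries the nearest summit was 13393 to 14694 bp from the start, and shRNF8 replicate 1 had 1 more peak at 4917 bp. The part of the gene nearer its end was covered over 53.2% to 87.9% and the part nearer its start over 20.2% to 31.6%, divided at the midpoint. Its highest folds were 10.3 and 9.91 in shScr and 9.62, 12.3, 10.6 and 9.84 in shRNF8, and these overlapped. The window at the SLC7A5 start, although the richest in GC of the members' windows, thus lay outside every peak, the nearest of which began 4714 bp into the gene.

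SLC3A2 (chr11:62856012-62888883, plus strand) was covered over 46.7% to 78.0% beyond its midpoint and over 0% to 3.89% before it. In 4 of 6 libraries one summit lay 25267 to 25372 bp from the annotated start, beside the internal RefSeq starts at 24884 and 25687 bp, and had folds of 19.5 and 15.9 in shScr and 27.0 and 16.0 in shRNF8 replicates 1 and 2. In shRNF8 replicates 3 and 4 a single peak spanned this region and the gene's end. The strongest peak at the end, with summits 32218 to 32506 bp from the start, had folds of 28.2 and 25.01 in shScr and 27.9, 14.2, 20.3 and 24.1 in shRNF8. The groups overlapped there. SLC7A11 (chr4:138164094-138242349, minus strand) had no peak in 5 of 6 libraries and 1 weak peak of fold 3.08 in shRNF8 replicate 4, 46248 bp from its start. Of genes of like length, 24.8% had no peak in any library.

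Set side by side, the RNA and S9.6 values of the 10 genes followed no single rule. TRIB3, CHAC1 and SESN2 were not called in the main edgeR fit of all libraries, and were called lower without shScr replicate 1. With all libraries, DESeq2 called each of them lower (DESeq2 adjusted p = 0.00302, 0.0179 and 0.0374), as did edgeR without a filter. DESeq2 called 852 of all 14018 genes. With limma-voom none of the 10 was called, nor with edgeR without any single library other than shScr replicate 1. SLC7A5 was called lower in the same fits as TRIB3, CHAC1 and SESN2 (DESeq2 adjusted p = 0.00587), while its S9.6 folds overlapped. In shRNF8 the fold at the TRIB3 start was lower, no peak overlapped CHAC1, and the weak start peak of SESN2 was not called. Over the whole SESN2 gene, peaks covered 3459 and 3155 bp in shScr and 0 to 5156 bp in shRNF8. ATF4 had a weaker start peak with nearly the same mRNA. DDIT4 and SLC7A11, with the largest RNA changes, had overlapping start folds and almost no peaks, respectively. With 2 shScr S9.6 libraries no single gene could pass the test of fold, and 0 of 3250 genes had an unadjusted p under 0.05.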

How the data were processed

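RNA values are whole-number counts per gene that the authors made with featureCounts (Subread 2.0.1) in paired-end mode without a strand option, per the file headers, and all 6 count columns were matched to a library by their labels. S9.6 and RNase-treated peaks are narrowPeak lists, one per library, which hold the authors' fold enrichment (a ratio) and the deposited −log10 p and q values. MACS2 2.2.7.1, Bowtie2 2.2.6, STAR 2.7.9a and the build hg38 are named per the submitters' processing notes, without their roles. Whether an input served as control for the peaks is not given in the sources used here. Gene lengths are the deposited sums of exon lengths, per the file headers.

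The members and gene lists were chosen with earlier results of these data known. Counts were filtered with filterByExpr, scaled by TMM and tested with edgeR 4.0.16 (quasi-likelihood, robust) in R 4.3.3 over all genes, and adjusted by Benjamini-Hochberg. SE is the log2 fold change divided by the square root of F. DESeq2 1.42.0, limma 3.58.1 (voom), other scalings, filters, a replicate block and leaving out each library were alternatives. Start folds were compared by a two-sided exact permutation test over libraries, adjusted over all genes with such peaks. The scripts were tested on simulated data. Named genes are the 10 members, RNF8, up to 3 genes of each list with the lowest p and a mean of at least 1 CPM, and the 5 genes most like the members. ATF5, the markers of other cell types, MARS, the SLC7A5 pseudogenes, RPS19BP1 and other genes outside this rule were named for context. Peaks were compared with Python 3.11.15 and pandas 2.3.3. Promoters are from the RefSeq table of GRCh38.p14.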

Additional observations from a re-analysis of the deposited data

Results flagged for a closer look

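In 3 genes the length under S9.6 peaks in 1 of the 4 shRNF8 libraries lay far from the other 3 by Dixon's criterion, which chance meets in about 1 of 20 groups. Peaks covered 1403 bases of ATF4 in shRNF8 replicate 2, against 1634 to 1665 bases in the other shRNF8 libraries. They covered 2935 bases of DDIT3 in the same library, against all 3930 bases in the other 3. In SLC7A11 they covered 296 bases in shRNF8 replicate 4 and 0 in the other 3. For DDIT3 and SLC7A11 the other 3 values were tied, at the full gene length and at 0. Any different value then meets the criterion, so the rate of 1 in 20 does not apply to them.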

How the results depend on the processing

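Over all genes, 356 were called with all libraries, 648 without a filter, 852 with DESeq2, and 46 to 3865 when 1 library was left out, the highest without shScr replicate 1. Of the 10 members, 1 was called, beside 356 of 14018 genes. It was 2 with upper-quartile scaling (335 genes), with library size only (302) and at a mean CPM of at least 5 (298 of 10932). The count was 4 without a filter (648 of 20008), 5 with DESeq2 (852 of 14018) and 0 with limma-voom (330 of 14018). With limma-voom, 7 members had an unadjusted p under 0.05. In the main edgeR fit 7 members did, beside 2813 of 14018 genes. Leaving out 1 library gave 0 to 7 members, with 7 only without shScr replicate 1, and 0 (edgeR) without any other (6 or 7 at an unadjusted p under 0.05). The cause was not tested. DDIT4 was not called without a filter, with limma-voom or with the replicate block (adjusted p = 0.111, 0.0691 and 0.0862). All 140 log2 fold changes of single members under the alternatives were below 0, and the median stayed between -0.46 and -0.38. Replicate numbers did not pair the libraries (correlations of deviations -0.05, 0.11 and -0.23), and with a replicate block 501 genes and 2 members were called, TRIB3 and CHAC1 (adjusted p = 0.0103 and 0.0449) in place of DDIT4. Members with a start summit in all S9.6 libraries numbered 0, beside 1355 of 13539 genes. They numbered 4 within 2500 bp (2412 genes), 5 with any overlap (3250 genes) and 1 with every RefSeq start (1655 genes). When 1 library was left out they numbered 0 to 3 (1426 to 1649 genes), with 3 without shRNF8 replicate 4 (1649 genes). Members with a gene peak in all libraries numbered 7 (5569 of 13539 genes), against 4 with the summit inside the gene (4178 genes). They numbered 7 to 8 when 1 library was left out (5622 to 6009 genes). The TPM scale, overlap with any peak, RefSeq starts, the relative fold, the gene-peak counts with 1 library left out and the other tools on 5 libraries were chosen after seeing the data. The last called 7 members each. Fold values carry no depth, so counting error of single peaks is unknown.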
